A study of Mus musculus with 6 samples.

Results

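The 10 Notch pathway genes Notch1, Notch2, Notch3, Jag1, Jag2, Dll1, Hes1, Hes5, Hey1 and Rbpj were followed in lenses of newborn mice. Their members on the array were all probe sets annotated to a single one of these symbols, which gave 17 of 22626 tested probe sets. Dll1, Hes1 and Hey1 had 1 probe set each, and the other 7 genes had 2 each. The mutants carried the Le-AP-2alpha conditional mutation, aimed at Tfap2a (Tcfap2a in the labels), the gene of the transcription factor AP-2alpha. Their controls were wild-type littermates, and both were taken at P0, with 3 arrays per group. Total RNA was amplified and hybridised in one colour, and values are log2 intensities. Whether lenses were pooled and whether the wild types carry a Cre transgene is not stated in the labels. As background, the Le-Cre line is driven by Pax6 regulatory sequence and acts in the surface ectoderm that gives rise to the lens and the corneal epithelium, so cells of other origin in a dissected lens would keep the gene.

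Notch signalling passes between touching cells. A ligand of the Jagged or Delta-like family on one cell binds a Notch receptor on its neighbour, proteases then free the receptor's intracellular domain, and this domain joins the DNA-binding protein RBPJ in the nucleus to switch on target genes, among them Hes1, Hes5 and Hey1, which encode repressors of the basic helix-loop-helix class. In the mammalian lens the pathway is known for keeping epithelial cells dividing and for the timely formation of fibre cells, with Jag1 as the best studied ligand.

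The arrays carried the marks of lens. Cryaa, an alpha crystallin, lay between 13.63 and 13.81 on the log2 scale on all 6 arrays, and 6 of 6 lens epithelium markers were measured, of which Foxe3 was dim. A probe set is called dim here when its mean over all arrays was below 5.26, the median of those means. One array, wild-type replicate 1, was unlike the others. Its Pearson correlations with these lay between 0.926 and 0.945 over all probe sets, while those among the other arrays lay between 0.974 and 0.985. Where leaving it out moved the difference of a named Notch pathway gene by more than 1.5 times or turned its sign, the value without it is given too. The targeted gene was not lower in mutants: the brightest Tfap2a probe set had a mutant mean of 9.68 ± 0.13 and a wild-type mean of 9.06 ± 0.63 (SD, n = 3). Its wild-type replicates 1 to 3 were at 8.36, 9.26 and 9.56, and every mutant lay above them. Wild-type replicate 1 was the lowest of these, so part of the difference between the means lay on that array. The other Tfap2a probe sets, also bright, differed by 1.57 ± 0.49 and 0.36 ± 0.36 (log2, SE) with overlapping groups. The former had an unadjusted limma p of 0.0161 and an adjusted p of 0.999. Where its probes lie relative to the deleted part is not known here, so this value does not check the deletion.

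Lens markers themselves were mostly lower on the mutant arrays. Of 10 listed fibre genes 6 were measured, with 5 lower and 1 higher mean in mutants, and a median log2 difference of -0.35. Their summed intensity was 34622 to 36639 in mutants and 37046 to 44224 in wild types, with no overlap. Of the 6 epithelial genes 4 were lower and 2 higher, with a median of -0.66, and all 6 were lower without wild-type replicate 1. The mean log2 intensity of these 6 genes did not overlap, at 7.95 to 8.13 in mutants and 8.28 to 8.68 in wild types. Their summed intensity did overlap, at 7273 to 8014 in mutants and 5058 to 8963 in wild types. Cdh1, the adhesion protein E-cadherin of epithelia, differed by -1.29 ± 0.30 (log2, SE), with an unadjusted limma p of 0.00409 and an adjusted p of 0.999. limma called 0 genes of both lists, with 3 epithelial and 2 fibre genes at an unadjusted p under 0.05. The part of these shifts in the values of the Notch genes was not tested.

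No Notch gene passed the test. limma called 0 of the 17 probe sets at a Benjamini-Hochberg adjusted p under 0.05, where 0% of all 22626 tested probe sets were called, and each of the 17 had an adjusted p of 0.999. At an unadjusted p under 0.05 there were also 0 of the 17, beside 3.28% of all probe sets. Of the 10 genes, each taken by its brightest probe set, 8 had higher and 2 had lower means in mutants, and the median log2 difference was 0.30, beside -0.01 over all 12393 genes. This count turned over without wild-type replicate 1, when 4 genes were higher and 6 lower and the median was -0.10. The 95% interval of the difference held 0 for all 17 probe sets, with half-widths from 0.39 to 1.67. Differences inside an interval remained compatible with these arrays.

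**Figure D1:**
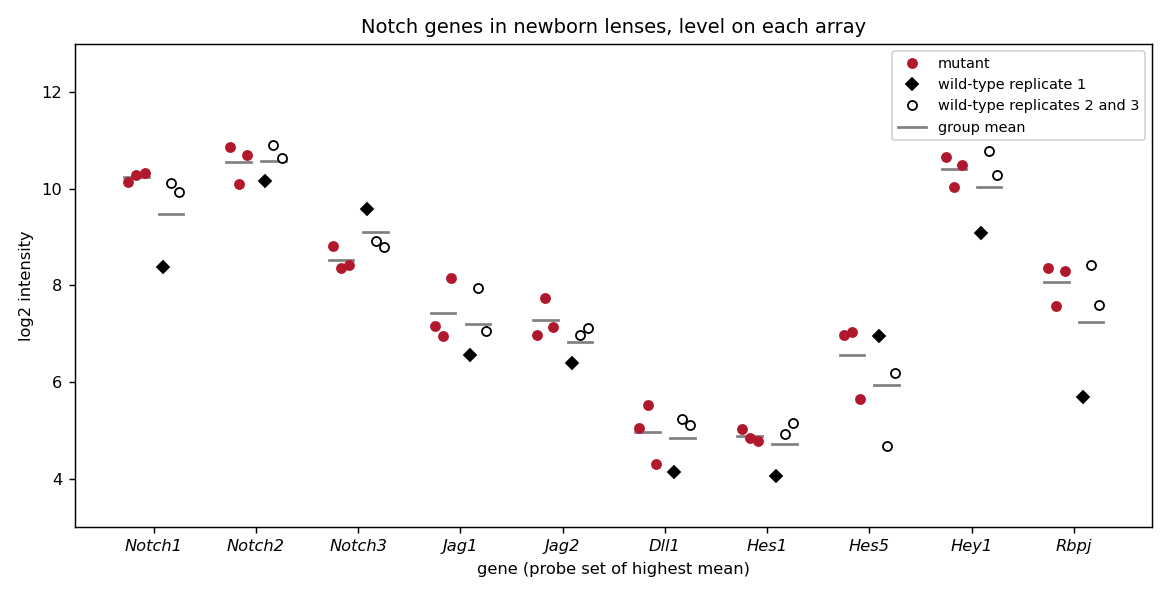
Log2 intensity (vertical axis) of the brightest probe set of each of the 10 Notch genes (horizontal axis) on the 3 mutant arrays (filled circles), on wild-type replicate 1 (diamond) and on wild-type replicates 2 and 3 (open circles), with grey lines at group means. Wild-type replicate 1 is the lowest of the 6 arrays for 7 genes and the highest for Notch3, and only for Notch1 are all mutants above all wild types.

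Among the receptors, Notch1 was the one whose groups did not overlap. On its bright probe set Notch1, the founding receptor of the family, was at 10.15, 10.28 and 10.34 in mutant replicates 1 to 3 and at 8.38, 10.13 and 9.94 in wild-type replicates 1 to 3. The mutants lay close together and just above wild-type replicates 2 and 3, while wild-type replicate 1 was far lower. The means were 10.25 ± 0.10 and 9.48 ± 0.96 (SD, n = 3), a difference of 0.77 ± 0.46 (SE), or 1.71-fold. The limma 95% interval ran from -0.34 to 1.88. Without wild-type replicate 1 the difference was 0.22 ± 0.19. Its other probe set, which was dim, differed by 0.29 ± 0.22 with overlapping groups, and by 0.14 ± 0.21 without that array. Among the 17 probe sets 1 had groups that did not overlap, beside 8.36% of all probe sets, or 3.74% with all mutants above.

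Notch2, a receptor that is known to act in the lens epithelium, had almost equal means. It was at 10.87, 10.10 and 10.70 in mutants and at 10.17, 10.90 and 10.63 in wild types. High and low arrays were found in both groups, which overlapped over nearly their whole range. The difference was -0.01 ± 0.29 (log2, SE), with a limma 95% interval from -0.72 to 0.69, and it was -0.21 ± 0.28 without wild-type replicate 1. The other, dim probe set of Notch2 differed by -0.03 ± 0.16, and by 0.01 ± 0.17 without that array.

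Notch3, the receptor best known from the muscle cells and pericytes of vessel walls, was the member with the lowest p. It was at 8.82, 8.35 and 8.42 in mutants and at 9.59, 8.93 and 8.79 in wild types. The groups overlapped by 1 array, since mutant replicate 1 lay above wild-type replicate 3, and wild-type replicate 1 was the highest of all. The means were 8.53 ± 0.25 and 9.10 ± 0.43 (SD, n = 3), and the difference was -0.57 ± 0.27 (SE), with an unadjusted limma p of 0.0792 and a 95% interval from -1.23 to 0.09. The other probe set of Notch3, also bright, had means of 7.90 ± 0.25 and 8.21 ± 0.22, which differ by -0.31 ± 0.22. When wild-type replicate 1 was left out, the values of both probe sets were close, at -0.33 ± 0.22 and -0.32 ± 0.24.

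Markers of vessel wall cells were read beside Notch3. All 9 listed pericyte and smooth muscle genes were measured, 4 with higher and 5 with lower means in mutants, and Cspg4, Myh11 and Des were dim. Their summed intensity ran from 1859 to 2356 in mutants and from 889 to 4183 in wild types. By the sum, to which Rgs5 added most on every array, wild-type replicate 1 was the lowest wild type. By the mean log2 intensity of the 9 genes it was the highest, at 6.02 against 5.83 and 5.86 in wild-type replicates 2 and 3, so the list gave it no single rank. All 11 endothelial genes were measured too, 5 with higher and 6 with lower means, and the sums were 2024 to 2382 in mutants and 2227 to 2813 in wild types. The defining endothelial genes Pecam1 and Cdh5 were dim. In whole lenses, fewer cells of a type and less RNA per cell cannot be told apart, and the part of vessel cells in the Notch3 values was not tested.

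The ligands gave no direction that held without wild-type replicate 1: the mean differences of Jag1, Jag2 and Dll1 on their brightest probe sets were above 0 with all arrays, and those of Jag1 and Dll1 were below 0 without it. Jag1, the ligand most studied in lens fibre formation, was at 7.17, 6.95 and 8.16 in mutants and at 6.57, 7.95 and 7.06 in wild types on its bright probe set. One array in each group was high and the ranges lay across each other. The difference was 0.24 ± 0.46 (log2, SE), with a limma 95% interval from -0.87 to 1.34, and it was -0.08 ± 0.44 without wild-type replicate 1.

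The other Jag1 probe set, which was dim, had a difference of the opposite sign. It was at 5.06, 3.53 and 3.78 in mutants and at 5.47, 4.49 and 4.59 in wild types. Mutant replicates 2 and 3 were below every wild type, but mutant replicate 1 was not. The difference was -0.73 ± 0.47 (log2, SE), and -1.20 ± 0.37 without mutant replicate 1, with an unadjusted limma p of 0.0198 and an adjusted p of 0.9996. It was -0.42 ± 0.46 without wild-type replicate 1, and -0.12 ± 0.44 without both wild-type replicate 1 and mutant replicate 2. Jag1 was the 1 gene of the 7 with paired probe sets for which the signs differed.

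Jag2, a close relative of Jag1, was at 6.97, 7.75 and 7.14 in mutants and at 6.39, 6.98 and 7.13 in wild types. The upper mutants exceeded the wild types, while mutant replicate 1 lay below wild-type replicate 3. The means were 7.29 ± 0.41 and 6.83 ± 0.39 (SD, n = 3), with a difference of 0.45 ± 0.30 (SE) and a limma 95% interval from -0.27 to 1.18. Without wild-type replicate 1 the difference was 0.23 ± 0.28, and the dim probe set of Jag2 differed by 0.06 ± 0.17, and by 0.09 ± 0.19 without that array. Dll1, a Delta-like ligand that in the retina is made by cells leaving the progenitor state, was dim in both groups. It was at 5.05, 5.51 and 4.30 in mutants and at 4.14, 5.24 and 5.11 in wild types, and the means differed by 0.12 ± 0.42. Leaving out wild-type replicate 1 gave -0.22 ± 0.36.

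**Figure D2:**
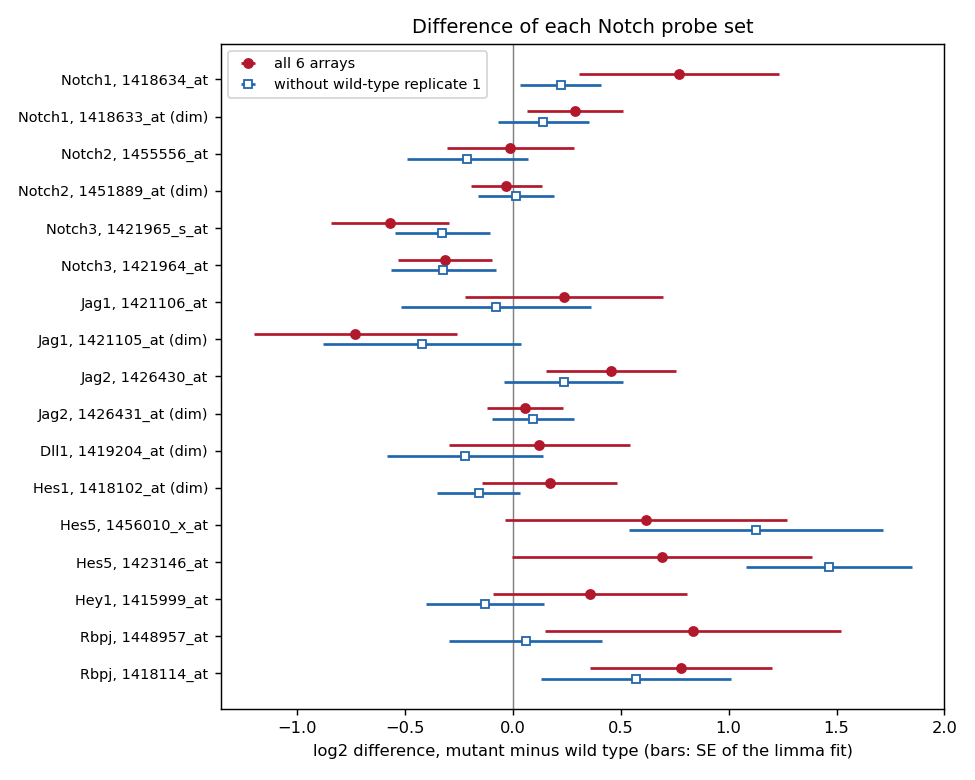
Log2 difference, mutant minus wild type (horizontal axis), of each of the 17 Notch probe sets (vertical axis), with bars for the standard error of the limma fit, for all 6 arrays (filled circles) and without wild-type replicate 1 (open squares). Leaving that array out brings Rbpj on its brighter probe set from 0.83 to 0.06 and moves Hes5 the other way, from 0.69 to 1.47 on one of its probe sets.

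Rbpj, the DNA-binding protein through which all Notch receptors act on target genes, had the largest mean difference among the bright probe sets, and much of it came from 1 array. It was at 8.35, 7.57 and 8.30 in mutants and at 5.69, 8.43 and 7.60 in wild types. Wild-type replicate 2 was above every mutant and wild-type replicate 1 was far below all other arrays. The means were 8.07 ± 0.44 and 7.24 ± 1.41 (SD, n = 3), which differ by 0.83 ± 0.68 (SE). Leaving out wild-type replicate 1 gave 0.06 ± 0.36. The other Rbpj probe set was at 7.02, 6.26 and 7.03 in mutants and at 5.58, 6.85 and 5.55 in wild types. There it was wild-type replicate 2 that stood apart from the other wild types, within the mutant range. The difference was 0.78 ± 0.42, and 1.21 ± 0.31 without wild-type replicate 2, with an unadjusted limma p of 0.00846 and an adjusted p of 0.699.

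Of the target genes, Hes1, a repressor that keeps progenitor cells from differentiating, was dim. It was at 5.02, 4.84 and 4.78 in mutants and at 4.05, 4.92 and 5.15 in wild types. The mutants lay between the wild types, of which replicate 1 was lowest. The difference was 0.17 ± 0.31 (log2, SE), with a limma 95% interval from -0.58 to 0.92, and -0.16 ± 0.19 without wild-type replicate 1. Hey1, a related repressor with a bright probe set, was at 10.67, 10.04 and 10.50 in mutants and at 9.08, 10.78 and 10.28 in wild types. Its groups overlapped except for wild-type replicate 1, which was the lowest array. The difference was 0.36 ± 0.45, with an interval from -0.73 to 1.44, and -0.13 ± 0.27 without that array.

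Hes5, a repressor typical of neural and retinal progenitors, varied widely among the wild types. On the probe set whose identifier ends in x_at, a suffix the maker of the array gives to probe sets that may also bind related transcripts, it was at 6.97, 7.03 and 5.64 in mutants and at 6.95, 4.67 and 6.18 in wild types. On the other it was at 7.06, 6.07 and 6.51 in mutants and at 7.41, 4.65 and 5.51 in wild types. Wild-type replicate 1, which was low for most members, was here the highest wild type on both probe sets, and wild-type replicate 2 was the lowest array. The differences were 0.62 ± 0.65 and 0.69 ± 0.69 (log2, SE). On the x_at probe set the difference was 1.13 ± 0.59 without wild-type replicate 1 and -0.02 ± 0.51 without wild-type replicate 2. Without wild-type replicate 1 the other probe set gave 1.47 ± 0.38, with an unadjusted limma p of 0.00804 and an adjusted p of 0.752, and without wild-type replicate 2 it was 0.09 ± 0.61.

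Hes5 and Rbpj are the members whose promoter windows held the RBPJ core motif. The motif TGGGAA was searched on both strands in windows of 250 bases before to 50 after each start site, taken from RefSeq on the GRCm38.p6 build. Of the 8 member genes with a window, 2 held it, beside 28.3% of 27025 genes with a window, and 13 of 44 other pathway genes held it. The set of windows held none for Hes1 and Hey1, so the motif was not searched in these genes. The 4 matches are shown because they are all the places where the motif stands in the members' windows. Capitals mark the motif, or TTCCCA where it lies on the opposite strand, all written 5′ to 3′ along the gene.
Hes5, chr4:154960687-154960712, plus strand, motif beginning 226 bases before the start: ggcgagcgcgTTCCCAcagcccggac
Hes5, chr4:154960831-154960856, plus strand, 82 bases before the start: ccgccgagtgTGGGAAcggccgcggc
Rbpj, chr5:53590187-53590212, plus strand, 149 bases before the start: tgaaaaaggcTGGGAAcccgcggcga
Rbpj, chr5:53590271-53590296, plus strand, 65 bases before the start: cgctcgcattTTCCCAggacccctcc
Windows with 2 or more matches made up 3.79% of all 32851 windows. A match describes the letters only, and the arrays carry no measure of binding.

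Part of the spread among the members lay on 1 array. Wild-type replicate 1 was the lowest of the 6 arrays for 7 of the 10 genes (Notch1, Jag1, Jag2, Dll1, Hes1, Hey1 and Rbpj), where it was the lowest for 25.8% of all genes and for 35.1% of genes above the median level. Over the 17 member probe sets it was the lowest for 8, beside 24.2% of all probe sets, and the highest for 4, beside 32.2%. These counts were chosen after the values were seen. Of the 45 pairs of members, 7 had a Pearson correlation above 0.8 over the 6 arrays, which share that array, and 2 of these 7 also did without it. Those pairs were Hey1 with Rbpj (0.99 with all arrays, 0.93 without) and Notch2 with Hey1 (0.84 and 0.94). Notch1 with Hes1 was at 0.86 with all arrays and at -0.96 without wild-type replicate 1, so its direction rested on that array. Other pairs ran in opposite directions both with and without it. These were Notch1 with Notch3 (-0.91 and -0.74), Notch3 with Jag2 (-0.91 and -0.78) and Jag1 with Hes5 (-0.83 and -0.81).

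The genes most like a member were sought among 6765 genes with a bright probe set, by Pearson correlation over the 6 arrays. Closest to Notch1 was the kinase gene Prkx (0.999, and 0.992 without wild-type replicate 1), followed by Mgst1. Closest to Rbpj were Utrn, which encodes the cytoskeletal linker utrophin (0.997 and 0.982), and the kinesin gene Kif2a. Closest to Hey1 were Ccdc43 and the taurine transporter gene Slc6a6 (0.996 and 0.981), which was at 5.42 in wild-type replicate 1 and between 8.45 and 10.30 on the other arrays. Closest to Notch3 were Papss2 and Mtap, to Notch2 Vwa5a and Ypel5, and to Jag1 the clock gene Per3 and Septin11. Closest to Jag2 were Ttyh2 and Srprb, and to Hes5 Sqle and Fen1. With 6 arrays and this many candidates, high values are a description of these libraries.

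The rest of the pathway was read from a list of 60 further genes, of which 51 had a probe set with a single symbol. limma called 0 of the 51, in either direction, beside 0% of all 12393 genes, with 2 at an unadjusted p under 0.05 beside 3.85% of all genes. Of the 51, 23 had higher and 28 lower means in mutants, with a median log2 difference of -0.08, and 26 were higher without wild-type replicate 1. Groups did not overlap for 8 of the 51, 3 with all mutants higher (Dtx1, Hes6 and Ccnd1) and 5 with all mutants lower (Lfng, Hes2, Hes3, Maml2 and Myc), beside 8.8% of all genes, or 4.22% with all mutants higher and 4.58% with all mutants lower. Those 5 were dim except Lfng, a glycosyltransferase that tunes which ligands a Notch receptor answers, which differed by -0.24 ± 0.19 (SE).

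**Figure D3:**
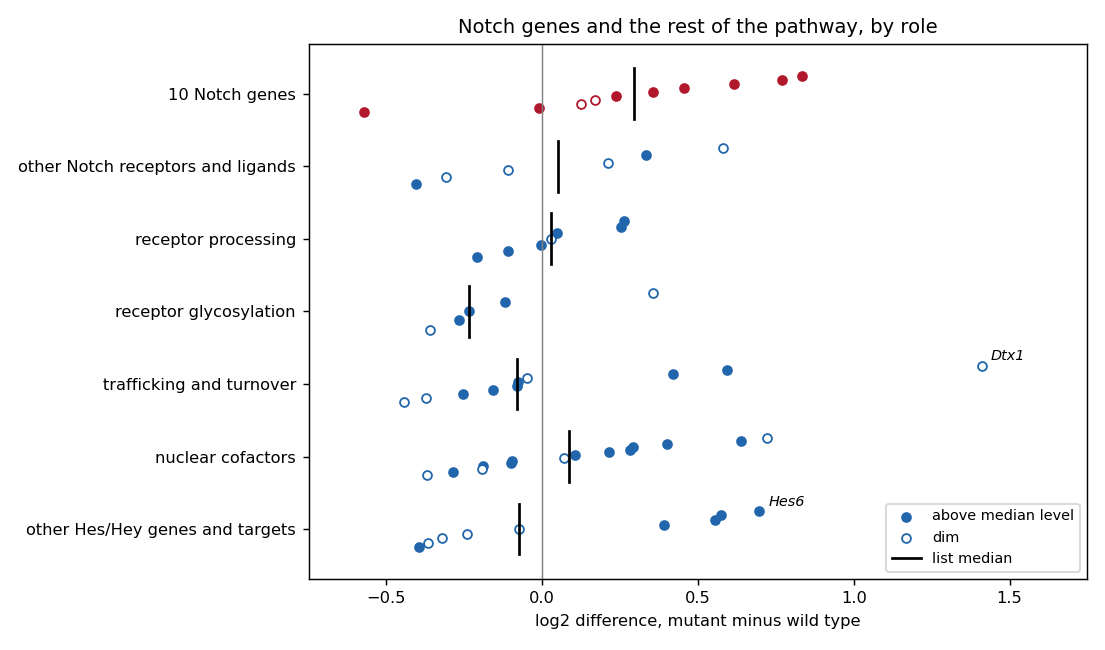
Log2 difference, mutant minus wild type (horizontal axis), of the 10 Notch genes and of 51 other pathway genes grouped by role (vertical axis), each by its brightest probe set, filled when above the median level and open when dim, with a black line at each list's median. The 10 Notch genes have a median of 0.30, the lists of other genes have medians between -0.24 and 0.09, and Dtx1 lies furthest to the right at 1.41.

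Dtx1, a Deltex protein that binds the intracellular part of Notch and takes part in its ubiquitination, had the lowest p of the pathway. It was at 5.48, 5.95 and 5.61 in mutants and at 4.53, 3.75 and 4.52 in wild types. Every mutant was above every wild type, on a probe set that was dim. The difference was 1.41 ± 0.28 (log2, SE), 2.66-fold, with an unadjusted limma p of 0.00179 and an adjusted p of 0.928. It lay between 1.15 and 1.54 when each array was left out in turn.

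Hes6, a relative of Hes1 that hinders Hes1 and favours neuronal differentiation, was higher in mutants on both of its probe sets. The brighter is an x_at probe set, which may also bind related transcripts. It was at 11.94, 11.25 and 11.29 in mutants and at 11.04, 10.53 and 10.83 in wild types. The other was at 6.78, 5.998 and 6.38 in mutants and at 5.73, 5.47 and 5.50 in wild types. On both, all mutants were above all wild types. The differences were 0.70 ± 0.26 and 0.82 ± 0.25 (log2, SE), with unadjusted limma p of 0.0351 and 0.0138 and adjusted p of 0.999 for both. Without wild-type replicate 1 they were 0.82 ± 0.28 and 0.90 ± 0.27.

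Genes of nerve cells and retina were mostly higher on the same arrays. Of 15 listed neural and retinal markers 12 were measured, 1 of them dim, and 10 had higher and 2 lower means in mutants, with a median log2 difference of 0.49. Their summed intensity was 2473 to 3943 in mutants and 1575 to 2175 in wild types, with no overlap. The mean log2 intensity of the 12 did overlap, at 6.79 to 7.74 in mutants and 6.17 to 6.85 in wild types. limma called 0 of the 12, with 2 at an unadjusted p under 0.05. Mutant replicate 1 had the highest sum and also the highest Hes6 on both probe sets, while Dtx1 was highest in mutant replicate 2, at 5.95. Wild-type replicate 1 had the lowest neural sum of its group, but the highest values of Hes5 and of Hes6. On the Hes6 probe sets it was at 11.04 and 5.73. Progenitor genes gave it no single rank among the wild types. It was highest for Atoh7 (9.19, 6.55 and 6.71 in wild types) and Nes (8.13, 6.16 and 6.54). It was lowest for Sox2 (8.04, 8.78 and 8.78) and Six6 (5.39, 6.16 and 6.09), and in the middle for Rax (6.07, 5.29 and 6.92). Macrophage markers were measured for 10 of 10 genes, with all 10 means higher in mutants and sums of 760 to 3364 against 697 to 974 in wild types. Mutant replicate 2 alone gave the high sum, since mutant replicates 1 and 3 were at 760 and 948, within the wild-type range. By the mean log2 intensity of the 10 genes the groups did not overlap. Mutants were at 5.44, 7.07 and 5.63 and wild types at 5.33, 5.30 and 5.28, and limma called 0 of the 10. The median log2 difference of the 10 was 0.85 with all arrays, and 0.21 with 8 higher and 2 lower when mutant replicate 2 and wild-type replicate 1 were both left out. Of 7 measured stromal and mesenchymal markers 6 had higher and 1 lower mean in mutants, with a median log2 difference of 0.47. Their sums were 280 to 657 in mutants and 143 to 400 in wild types. Of 6 pigment cell markers 4 were higher and 2 lower, with a median of 0.60, and 0.30 without wild-type replicate 1. Their sums were 2806 to 3269 in mutants and 3062 to 3644 in wild types. The part of neural, retinal, blood-derived, stromal, pigment cell or lens RNA in the values of Hes5, Hes6, Dtx1 and Dner was not tested.

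**Figure D4:**
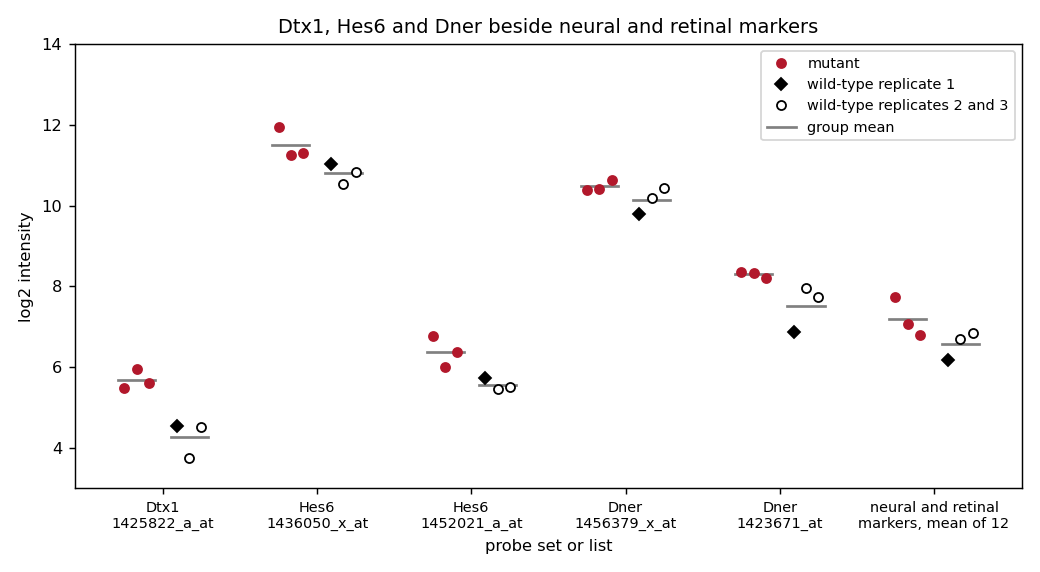
Log2 intensity (vertical axis) of the probe sets of Dtx1, Hes6 and Dner on each array, beside the mean of the 12 measured neural and retinal markers (horizontal axis), with mutants as filled circles, wild-type replicate 1 as a diamond, wild-type replicates 2 and 3 as open circles and grey lines at group means. All mutants are above all wild types for Dtx1, for both Hes6 probe sets and for the dimmer Dner probe set.

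Of the 6 other ligands and receptors of the list, 3 were higher and 3 lower, and 5 were higher and 1 lower without wild-type replicate 1. Dner, a membrane protein of neurons proposed as a Notch ligand, differed by 0.33 ± 0.23 (log2, SE) on its brightest probe set, also an x_at one. It differed by 0.78 ± 0.31 on its other bright one, where all mutants were above all wild types. The latter had an unadjusted limma p of 0.0416 and an adjusted p of 0.999. They were smaller without wild-type replicate 1, at 0.15 ± 0.20 and 0.45 ± 0.19. Dll3, a ligand that acts within its own cell to damp Notch signalling, was dim and differed by 0.58 ± 0.35. Notch4, the receptor of vessel endothelium, was at 5.47, 5.60 and 5.22 in mutants and at 6.84, 5.29 and 5.39 in wild types, so that wild-type replicate 1 alone was high. Its difference was -0.41 ± 0.43, and 0.10 ± 0.20 without that array.

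The machinery that cuts and modifies the receptors had differences on both sides of 0. Of 7 measured processing genes, 4 were higher and 3 lower, with differences from -0.21 to 0.26 on their brightest probe sets. Adam10, the protease that makes the first ligand-dependent cut, differed by -0.21 ± 0.23 (log2, SE), and Adam17, a related protease, by 0.26 ± 0.37. When wild-type replicate 1 was left out these were -0.39 ± 0.19 and -0.12 ± 0.24, and 3 of the 7 were higher. A dim Adam10 probe set differed by -0.70 ± 0.35, and by -0.39 ± 0.29 without that array. A further bright one differed by -0.62 ± 0.71, and by -1.28 ± 0.56 without it. The other Adam17 probe sets, dim and bright, differed by -0.53 ± 0.26 and 0.04 ± 0.30. Without that array they gave -0.36 ± 0.25 and 0.01 ± 0.33. Of 5 glycosylation genes, 1 was higher and 4 lower, with Pofut1, which adds fucose to the receptor, dim and at -0.36 ± 0.24, and 3 were higher when wild-type replicate 1 was left out. Numb, an inhibitor of Notch that is passed unequally to daughter cells, differed by 0.42 ± 0.24, and it was 1 of 3 higher genes among 10 of trafficking and turnover, of which 5 were higher without that array.

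Of 14 nuclear cofactors, 8 were higher and 6 lower. The Groucho-type corepressors Tle1, which was dim, and Tle4, which was bright, had the lowest p, with differences of 0.72 ± 0.32 and 0.40 ± 0.29 (log2, SE), and of 0.66 ± 0.36 and 0.17 ± 0.24 without wild-type replicate 1. Their other probe sets, both dim, differed by 0.08 ± 0.37 for Tle1 and 0.02 ± 0.19 for Tle4. Without that array these were -0.09 ± 0.38 and -0.01 ± 0.21. Among 9 further Hes and Hey genes and targets, 4 were higher and 5 lower, and 2 were higher and 7 lower without wild-type replicate 1. Ccnd1, the cyclin that carries cells from growth into DNA synthesis, differed by 0.39 ± 0.23, with 12.13, 12.13 and 11.95 in mutants and 11.28, 11.93 and 11.83 in wild types. The gap between the groups was small next to the fall of wild-type replicate 1. Its other probe sets differed by 0.78 ± 0.69 and -0.10 ± 0.31. The 3 probe sets gave 0.19 ± 0.18, -0.01 ± 0.33 and -0.30 ± 0.30 without wild-type replicate 1. Hes3, listed for the lowest p after Hes6, was dim and differed by -0.37 ± 0.20.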

How the data were processed

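Values of 6 arrays, 3 per group, were used. The deposited values are probe set intensities on a linear scale, normalised by the authors with RMA, per the submitters' processing notes; version, settings and the step back from log2 are not given in the sources used here. RMA tends to shrink the differences of dim probe sets and removes shifts common to an array. The log2 of each intensity was taken, with a pseudocount of 0. Of 22690 probe sets, 64 array controls were left out. Names came from the platform annotation of 2016, and 20351 of 20380 single-symbol probe sets matched a RefSeq gene by Entrez ID. Each gene was taken by its brightest probe set, the one of highest mean over all arrays.

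R 4.3.3 and limma 3.58.1 (lmFit, eBayes, no covariate, two-sided, Benjamini-Hochberg over 22626 probe sets) were used. With 3 arrays per group the number of arrays limits the precision, and p-values cover the spread between these samples, which may be technical. On simulated data over 22626 probe sets, log2 changes of 1, 2, 3 and 4 were recovered in 20%, 42%, 88% and 88% of 50 probe sets each, with 8 false calls.

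The members, lists and alternatives were chosen with earlier results of these data known. Named were all members and Tfap2a, the 2 pathway genes of lowest p per list, markers beside a result, and the 2 genes most correlated with each bright member, leaving out clone and model names; Notch4, Lfng, Ccnd1 and other probe sets were added after their values were seen.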

Additional observations from a re-analysis of the deposited data

How the results depend on the processing

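The count of calls over all 22626 probe sets was 0 with all arrays and 7 with arrays weighted by limma, where wild-type replicate 3 had a weight of 5.65 and wild-type replicate 1 one of 0.224. None of the 7 was a member. In the other alternatives (median centring, quantile normalisation, dim probe sets left out, a trended prior, a threshold of 0.1, averaging the probe sets of a gene, wild-type replicate 1 and mutant replicate 2 left out together, and each array left out in turn) limma called 0 probe sets or genes, members and other pathway genes included. With the replicate number as a block it also called 0, with a lowest adjusted p of 0.999. Deviations of same-numbered arrays correlated at -0.07, -0.26 and -0.16. With 3 arrays per group this does not settle whether same-numbered arrays were paired. The median difference of the 10 genes was 0.30 with all arrays and ran from -0.10 (without wild-type replicate 1) to 0.43 as each array was left out. Leaving out both wild-type replicate 1 and mutant replicate 2 gave 0.03. Of the 17 probe sets, 9 kept the sign of their difference in every alternative run, namely both of Notch1, Notch3 and Rbpj, the dim one of Jag1, the bright one of Jag2 and 1 of Hes5, and 8 did not. Adjusted p of members ran from 0.24 to 0.9998 over the alternatives.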

Other observations

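Some bright genes of the pathway were low in wild-type replicate 1 and differed in the other direction once it was left out; they were picked after their values were seen. Hey2, a repressor of the Hey family that acts in heart and vessels, was at 2.996 in wild-type replicate 1 and between 5.9996 and 7.36 on the other arrays. The groups differed by 0.57 ± 1.16 (log2, SE) over all arrays and by -0.87 ± 0.33 without that one, with an unadjusted limma p of 0.0372 and an adjusted p of 0.893. Kat2b, an acetyltransferase that assists transcription by the Notch complex, was at 6.84 there and between 9.62 and 10.37 elsewhere. The groups differed by 0.64 ± 0.93 over all arrays and by -0.53 ± 0.20 without it, with an unadjusted limma p of 0.0339 and an adjusted p of 0.880. Nrarp, a target gene whose product dampens Notch, was at 7.78 there and between 9.44 and 9.99 elsewhere. Its difference was 0.55 ± 0.59 over all arrays and -0.15 ± 0.23 without that array. The other Nrarp probe set, also bright, gave 0.11 ± 0.56 and -0.55 ± 0.24. For Kat2b the other probe set was dim and was lower in mutants both ways, at -0.51 ± 0.35 and -0.61 ± 0.39.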
